A study of Homo sapiens with 6 samples.

Results

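The genes described here encode the vacuolar H+-ATPase (V-ATPase) and other proteins of the lysosomal membrane. Ribosome footprints were counted in K562 cells, a human chronic myelogenous leukemia line. The 36 genes were picked by name, not by a threshold on any value, and all 36 were found among the 19330 transcripts of the table, each with 1 transcript per gene. They were divided into 16 V-ATPase subunits and 20 other lysosomal membrane proteins. The group was nevertheless chosen after lysosomal genes had been seen among the smallest p-values of this same comparison, so the fold changes and calls of its members describe the group and are not independent evidence about it.

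The V-ATPase is a rotary proton pump. Its peripheral V1 sector hydrolyses ATP, its membrane-embedded V0 sector carries protons, and together they acidify lysosomes, endosomes and secretory vesicles. The other proteins of the lysosomal limiting membrane shield it from the acid hydrolases inside, conduct ions, export amino acids, sugars, lipids and vitamins released by digestion, and take part in nutrient signalling.

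Ribosome profiling (Ribo-Seq) sequences mRNA fragments protected by ribosomes, and the number of fragments on a coding sequence (CDS) measures its ribosome occupancy. The 3 sgN6AMT1 libraries came from cells given an sgRNA against N6AMT1, a methyltransferase whose substrates include eRF1, a release factor of translation. The study's methods do not state which of their N6AMT1 guides each library carried. The 3 sgCtrl libraries came from cells given an sgRNA against an olfactory receptor gene, named OR11A1 and OR2M49 in the labels and OR2M4 in the study's methods; which of these guides each sgCtrl library carried was not stated. Both groups carried the lentiviral pLentiCRISPRv2 vector with Cas9 and its puromycin resistance, were selected for 48 h and were analysed 10 days after infection. The cells were transduced pools and not clones, and per the study's methods the replicates were independent transductions. The footprints of a pool are a bulk measurement, in which a change in some of the cells and a smaller change in all of them cannot be told apart, nor can a change in mRNA abundance and a change in translation.

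Library totals ranged from 1821356 to 2969736 counts. N6AMT1 itself fell, with counts of 25, 24 and 34 in sgCtrl against 10, 9 and 8 in sgN6AMT1 (log2 fold change -1.51, SE 0.31; adjusted p 6.69e-05 by edgeR's quasi-likelihood test after Benjamini-Hochberg adjustment). OR11A1 and OR2M4 had 0 counts in all libraries. All 11 erythroid markers of K562 cells were detected. Of these, 3 rose (GYPC, HBE1 and TAL1, with log2 fold changes of 0.64, 0.48 and 0.48). Another 4 fell (KLF1, TFRC, GATA1 and HBZ, with -0.37, -0.33, -0.29 and -0.27). The summed level of the 11 was 27517 to 29021 CPM (read depth taken out by dividing counts by TMM-adjusted library sizes) in sgCtrl. In sgN6AMT1 it was 27919 to 28855 CPM. Most of this sum was HBG1 and HBG2 (means of 9553 and 9920 CPM in sgCtrl), neither of which passed the test. The sum therefore does not show how the other markers changed. Of the 8 listed markers of other blood cells, 2 had enough counts for the test, and CD14 and MS4A1 had 0 counts in all libraries. The summed level of the 8 was 82.9 to 101 CPM in sgCtrl and 131 to 138 CPM in sgN6AMT1. LYZ, a lysozyme gene of myeloid cells, rose from 54.4 ± 5.47 to 103 ± 5.60 CPM (SD, n = 3 each, edgeR adjusted p 2.46e-11). CD3D, the other marker tested, went from 35.7 ± 4.45 down to 29.2 ± 2.43 CPM and did not pass (edgeR adjusted p 0.114). The higher sum thus came mainly from LYZ. The part of these markers in the results below was not tested.

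Because the V-ATPase genes and many other lysosomal genes are known targets of the transcription factor TFEB, which binds E-box sequences with the core CACGTG, the promoters of the members are shown first. RefSeq promoters on GRCh38.p14, running from 250 bases before to 50 bases after the start of the gene, were matched for 28 of the 36 members. CACGTG is its own reverse complement, so 1 search covered both strands. It was present in 7 of 28 member promoters (25.0%), against 7.43% of 27305 promoters and 11.0% of the 7176 promoters of tested genes. The holders were 3 of 11 V-ATPase promoters, ATP6V0B, ATP6V0D1 and ATP6V1G1, and 4 of 17 others, LAMP1, CLCN7, CLN3 and MCOLN1. The CLN3 window lies inside the CLN3 transcript of the counts (chr16:28475396-28495550, minus strand). Its hexamer is therefore not upstream of the start of that transcript. The 30 bases around 1 such hexamer in each promoter, written 5′ to 3′ on the strand of the gene with the hexamer in capitals, were the following.
ATP6V0B, chr1:43974891-43974920, plus strand: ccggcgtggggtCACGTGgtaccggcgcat
ATP6V0D1, chr16:67481199-67481228, minus strand: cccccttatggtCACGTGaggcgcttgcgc
ATP6V1G1, chr9:114587699-114587728, plus strand: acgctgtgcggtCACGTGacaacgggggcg
LAMP1, chr13:113297035-113297064, plus strand: accaggccgggtCACGTGggtccagggtca
CLCN7, chr16:1475058-1475087, minus strand: gccgtcgctcatCACGTGgccccgtcgcgc
CLN3, chr16:28492087-28492116, minus strand: aaaacctctgagCACGTGatgggggaacac
MCOLN1, chr19:7522571-7522600, plus strand: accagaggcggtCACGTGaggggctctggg

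The longer form GTCACGTG, searched on both strands and containing the core, was present in 7 of 28 member promoters (25.0%), against 2.53% of all promoters and 4.84% of those of tested genes. The palindrome TCACGTGA, which also contains the core, was present in 5 of 28 (17.9%), against 1.04% and 2.16%. LAMP1 held the most copies of the core, 6 in its 300 bases. Of these, 5 lay upstream of the start and are in capitals in the sequence just before it.
LAMP1, chr13:113296989-113297237, plus strand: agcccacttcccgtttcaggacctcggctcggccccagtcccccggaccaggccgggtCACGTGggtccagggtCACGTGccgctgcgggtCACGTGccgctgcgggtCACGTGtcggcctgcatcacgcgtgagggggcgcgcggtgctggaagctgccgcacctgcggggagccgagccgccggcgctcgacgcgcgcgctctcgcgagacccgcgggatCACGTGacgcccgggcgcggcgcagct
Among the 28 members with a matched promoter, those with and without the core had close medians. Of the 7 members with it, 3 were called higher (median log2 fold change 0.23), and of the 21 without it, 8 were called higher (median 0.25). LAMP1, with the most copies, was not called. Only 11 of the 17 members called higher had a matched promoter, and LAPTM4B, with the smallest p-value, was not among them. The difference between members with and without the core was not tested. These matches describe letters in a window and not binding, and 7 of 30 matched promoters (23.3%) of the luminal hydrolases of the lysosome also held the core.

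To ask how the ribosome occupancy of the members changed upon N6AMT1 depletion, all 9202 genes with enough counts were compared with edgeR's quasi-likelihood test at a Benjamini-Hochberg adjusted p of 0.05. All 36 members were among them. Of the members, 17 were higher and 0 lower in sgN6AMT1, beside 12.9% of all genes tested that were higher and 13.9% that were lower. The median log2 fold change of the members was 0.29, and that of all genes tested was 0.01. In 21 members every sgN6AMT1 library lay above every sgCtrl library in CPM, and in 0 members below, beside 18.4% and 19.2% of all genes tested. A positive fold change was found for 34 members, and a negative one for MFSD8 and TMEM192 alone. As the group was taken up for this direction in this comparison, nothing is read from these counts.

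Among the 16 V-ATPase subunits, 12 rose and 4 did not pass the test, and all 16 had a positive fold change (median log2 fold change 0.33, range 0.09 to 0.57). Among the 20 other membrane proteins, 5 rose and 15 did not pass, and 18 had a positive fold change (median 0.23, range -0.43 to 0.89). The values of the V-ATPase subunits thus spanned the narrower range, while the others held both the largest increase and the only decreases among the members, neither of which decreases passed the test. These extremes were genes with few counts, TPCN1 (SE 0.24), TMEM192 (SE 0.25) and MFSD8 (SE 0.18). The median SE was 0.16 for the others and 0.08 for the V-ATPase, so the wider range also holds more sampling noise. The difference between these classes was not tested.

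**Figure D1:**
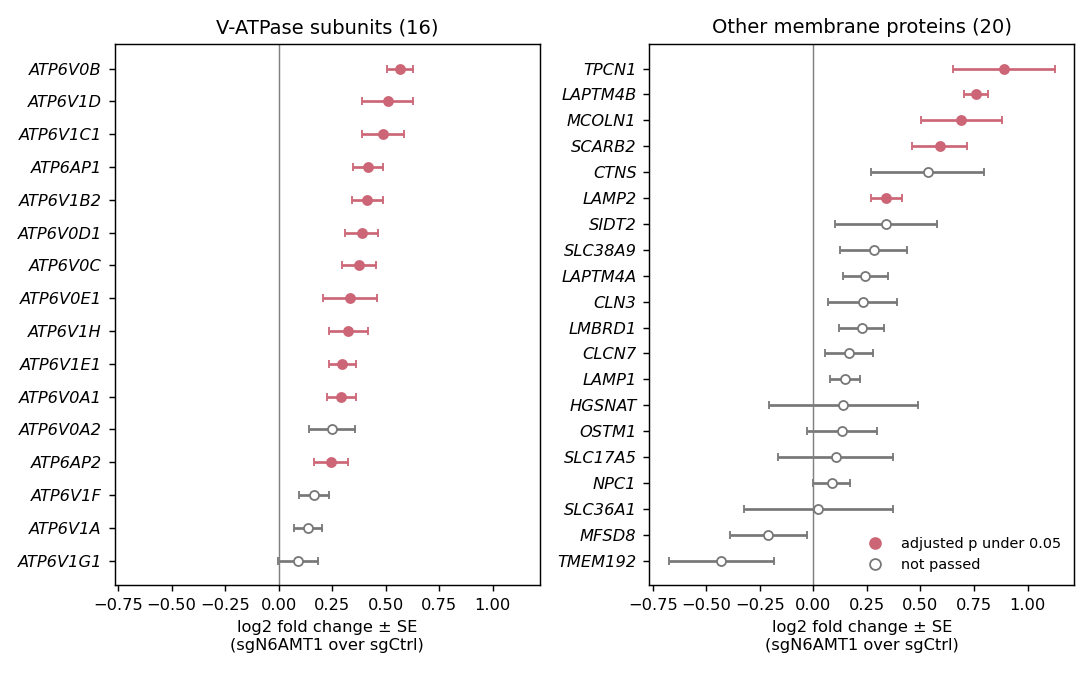
Log2 fold changes of sgN6AMT1 over sgCtrl (x axis) for the 16 V-ATPase subunits (left) and the 20 other lysosomal membrane proteins (right), with bars of 1 SE from edgeR. Filled circles passed an adjusted p of 0.05 and open circles did not; the subunits lie between 0.09 and 0.57 and the others between -0.43 and 0.89.

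The V0 sector holds the proton path, and 5 of its 6 members rose (median log2 fold change 0.35). ATP6V0B, which encodes the c'' subunit of the proton-carrying ring, had the largest increase of the V-ATPase. It measured 259, 230 and 269 CPM in sgCtrl and 372, 349 and 398 CPM in sgN6AMT1, so that the groups lay well apart. Its level rose from 253 ± 20.4 to 373 ± 24.4 CPM (SD, n = 3 each; log2 fold change 0.57, SE 0.063, edgeR adjusted p 1.86e-12). The listed transcript lies at chr1:43974944-43978213 with 7 exons.

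ATP6V0C encodes subunit c, the main component of the same ring. Its 118, 139 and 154 CPM in sgCtrl all lay below its 166, 178 and 191 CPM in sgN6AMT1 (log2 fold change 0.38, SE 0.080, edgeR adjusted p 9.95e-05). This value is shared in part with another transcript: 82.3% of the 28-base windows of the ATP6V0C CDS occurred also in the listed transcript RP11-20I23.1, which had 79, 128 and 107 counts in sgCtrl against 114, 145 and 107 in sgN6AMT1 and rose as well (log2 fold change 0.32, SE 0.12, edgeR adjusted p 0.0385). How footprints were divided between these transcripts was not stated.

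ATP6V0D1 encodes subunit d, which joins the ring to the central stalk. Its 132, 128 and 135 CPM in sgCtrl were nearly equal, and its 162, 182 and 170 CPM in sgN6AMT1 all lay above them. The log2 fold change was 0.39 (SE 0.078, edgeR adjusted p 4.03e-05).

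The a subunits anchor the stalks in the membrane and carry the proton half-channels. ATP6V0A1 measured 213, 213 and 184 CPM in sgCtrl and 255, 243 and 251 CPM in sgN6AMT1, with no overlap (log2 fold change 0.29, SE 0.067, edgeR adjusted p 3.46e-04). ATP6V0A2, the isoform known from the Golgi and endosomes, measured 63.3, 69.6 and 64.1 CPM in sgCtrl and 75.4, 84.2 and 74.9 CPM in sgN6AMT1. Its groups did not overlap either, but its log2 fold change of 0.25 (SE 0.11) did not pass the test (edgeR adjusted p 0.0783).

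ATP6V0E1, the small subunit e, was the least certain call of the pump. It measured 77.4, 46.9 and 73.9 CPM in sgCtrl and 91.6, 79.9 and 70.6 CPM in sgN6AMT1, so the groups overlapped. Its increase (log2 fold change 0.33, SE 0.13, edgeR adjusted p 0.0411) rested on sgCtrl replicate 2, the lowest library: without it the log2 fold change was 0.10 (adjusted p 0.610). It also did not pass when sgN6AMT1 replicate 1 (0.23, adjusted p 0.182) or replicate 2 (0.34, adjusted p 0.127) was left out, nor with DESeq2 (adjusted p 0.309).

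The V1 sector hydrolyses ATP, and 5 of its 8 members rose (median log2 fold change 0.31). Its catalytic core is a ring of alternating A and B subunits, of which B passed the test and A did not. ATP6V1B2, the B subunit, measured 158, 153 and 152 CPM in sgCtrl and 207, 196 and 214 CPM in sgN6AMT1. The groups were far apart, and the log2 fold change was 0.41 (SE 0.072, edgeR adjusted p 2.44e-06). ATP6V1A, the A subunit that hydrolyses ATP, measured 222, 239 and 238 CPM in sgCtrl and 265, 234 and 271 CPM in sgN6AMT1. Here sgN6AMT1 replicate 2 lay within the sgCtrl range, and the log2 fold change of 0.14 (SE 0.066) did not pass (edgeR adjusted p 0.118). It passed when that library was left out. The difference between these genes was not tested.

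In the central stalk, which turns within the ring, subunit D rose. ATP6V1D measured 46.2, 42.1 and 45.4 CPM in sgCtrl and 60.5, 66.1 and 62.4 CPM in sgN6AMT1 without overlap (log2 fold change 0.51, SE 0.12, edgeR adjusted p 4.07e-04). ATP6V1F, the other stalk subunit, measured 168, 177 and 180 CPM in sgCtrl and 185, 192 and 214 CPM in sgN6AMT1. Its groups did not overlap but lay close together, and its log2 fold change of 0.16 (SE 0.072) did not pass (edgeR adjusted p 0.0796). It passed without sgN6AMT1 replicate 1 and in some other settings. With trends on CDS length and GC content removed, the log2 fold change was 0.02 (edgeR adjusted p 0.867).

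The peripheral stalks, which hold the ring still, consist of subunits E and G and join subunit C. ATP6V1C1, subunit C, whose release separates V1 from V0, measured 72.8, 76.9 and 76.9 CPM in sgCtrl and 102, 111 and 105 CPM in sgN6AMT1. The 3 sgCtrl libraries were close to each other and all lower (log2 fold change 0.49, SE 0.097, edgeR adjusted p 3.62e-05). ATP6V1E1, subunit E, measured 226, 273 and 250 CPM in sgCtrl and 313, 311 and 301 CPM in sgN6AMT1 (log2 fold change 0.30, SE 0.064, edgeR adjusted p 1.30e-04). The groups did not overlap; 41.3% of the 28-base windows of its CDS recur in transcripts of other genes, mainly pseudogenes, none of them listed in the table. ATP6V1G1, subunit G, showed no such separation: 111, 88.3 and 114 CPM in sgCtrl enclosed the 111, 113 and 104 CPM in sgN6AMT1. Its fold change was the smallest of the V-ATPase (log2 fold change 0.09, SE 0.093, edgeR adjusted p 0.517).

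ATP6V1H, the regulatory subunit H, measured 87.9, 97.6 and 96.6 CPM in sgCtrl and 131, 117 and 105 CPM in sgN6AMT1. The sgN6AMT1 libraries were all higher and spread more (log2 fold change 0.33, SE 0.092, edgeR adjusted p 0.00413). Without sgN6AMT1 replicate 1, the highest library, the log2 fold change was 0.24 and did not pass (adjusted p 0.0794).

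Both accessory subunits rose. ATP6AP1, a glycoprotein of the V0 sector needed for assembly of the pump, measured 164, 165 and 185 CPM in sgCtrl and 222, 229 and 236 CPM in sgN6AMT1 without overlap (log2 fold change 0.42, SE 0.070, edgeR adjusted p 9.67e-07). ATP6AP2, also known as the prorenin receptor, measured 120, 140 and 139 CPM in sgCtrl and 173, 142 and 159 CPM in sgN6AMT1. Its groups nearly touched, and its increase (log2 fold change 0.24, SE 0.081, edgeR adjusted p 0.0169) did not pass without sgCtrl replicate 1 (0.18, adjusted p 0.134) or without sgN6AMT1 replicate 1 (0.17, adjusted p 0.173). Nor did it pass with trends on CDS length and GC content removed (0.20, edgeR adjusted p 0.0588) or with DESeq2 (adjusted p 0.161).

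**Figure D2:**
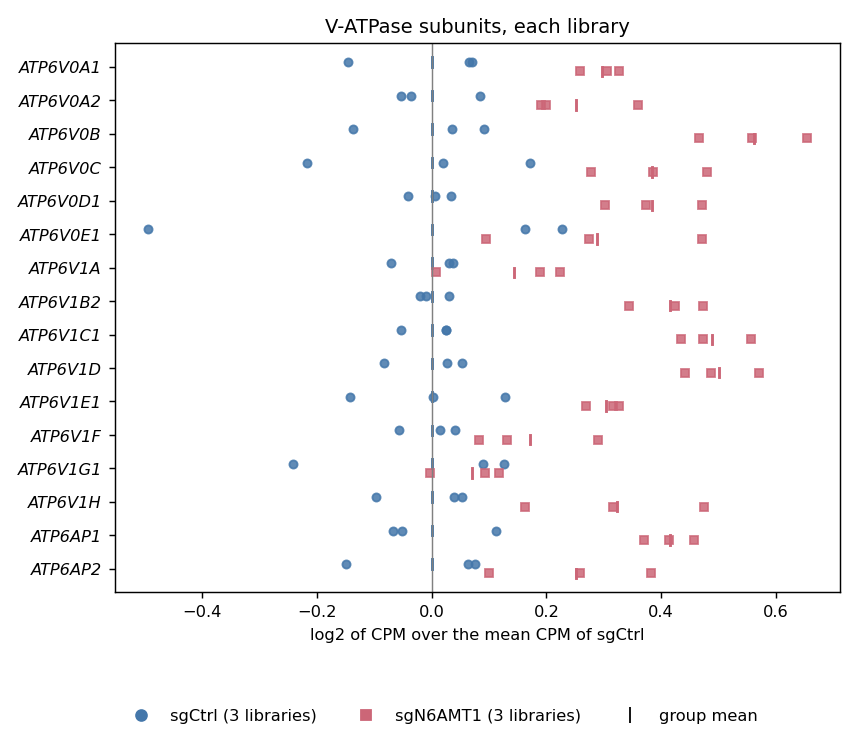
Log2 of the CPM of each library over the mean CPM of sgCtrl (x axis) for each V-ATPase subunit, with circles for the 3 sgCtrl and squares for the 3 sgN6AMT1 libraries and short bars for the group means. The groups do not overlap for 13 of the 16 subunits; they overlap for ATP6V0E1, ATP6V1A and ATP6V1G1.

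Among the other membrane proteins were 5 structural glycoproteins and LAPTM4 proteins. In all 5 the groups did not overlap, and 3 rose (median log2 fold change 0.34). LAPTM4B, a membrane-spanning protein of late endosomes and lysosomes, had the smallest p-value of all members. It measured 353, 407 and 395 CPM in sgCtrl and 658, 683 and 618 CPM in sgN6AMT1. Its level rose from 385 ± 28.6 to 653 ± 33.1 CPM (SD, n = 3 each; log2 fold change 0.76, SE 0.056, edgeR adjusted p 1.39e-21). Its paralog LAPTM4A measured 68.3, 69.6 and 67.5 CPM in sgCtrl and 84.2, 76.9 and 82.5 CPM in sgN6AMT1. These groups were also apart, but the log2 fold change of 0.24 (SE 0.11) did not pass (edgeR adjusted p 0.0798).

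LAMP1 and LAMP2 are the abundant glycoproteins that line the inner face of the membrane, and LAMP2 also serves in chaperone-mediated autophagy. LAMP2 measured 171, 162 and 152 CPM in sgCtrl and 217, 199 and 197 CPM in sgN6AMT1 and rose (log2 fold change 0.34, SE 0.072, edgeR adjusted p 1.01e-04). LAMP1 measured 190, 183 and 180 CPM in sgCtrl and 203, 204 and 206 CPM in sgN6AMT1. Its groups did not overlap, and its log2 fold change of 0.15 (SE 0.069) did not pass (edgeR adjusted p 0.109). With trends on CDS length and GC content removed, the log2 fold change was 0.03 (edgeR adjusted p 0.794). SCARB2, the receptor that carries glucocerebrosidase to the lysosome, measured 31.1, 34.8 and 36.5 CPM in sgCtrl and 55.2, 48.4 and 51.0 CPM in sgN6AMT1. It rose without overlap (log2 fold change 0.59, SE 0.13, edgeR adjusted p 1.48e-04).

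Among the 4 ion channels and their partners, both cation channels rose and the chloride exchanger and its partner did not pass. MCOLN1 (TRPML1), which releases calcium from lysosomes, measured 17.6, 13.8 and 15.3 CPM in sgCtrl and 25.4, 25.9 and 22.8 CPM in sgN6AMT1 (log2 fold change 0.69, SE 0.19, edgeR adjusted p 0.00271). TPCN1, another endolysosomal cation channel, had the largest fold change of the members on few footprints, with counts of 16, 21 and 26 in sgCtrl against 34, 36 and 39 in sgN6AMT1. Both genes were without overlap, but neither passed with DESeq2 (adjusted p 0.0771 and 0.0729). The log2 fold change of TPCN1 was 0.89 (SE 0.24, edgeR adjusted p 0.00239), and without sgCtrl replicate 2 it was 0.69 and did not pass (adjusted p 0.0529). CLCN7, the chloride-proton exchanger, measured 70.3, 63.4 and 51.8 CPM in sgCtrl and 67.5, 68.7 and 72.7 CPM in sgN6AMT1, with overlap (log2 fold change 0.17, SE 0.11, edgeR adjusted p 0.292). OSTM1, its obligate partner, measured 24.4 ± 2.61 and 26.3 ± 1.66 CPM (SD, n = 3 each; edgeR adjusted p 0.602).

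None of the 9 solute and lipid transporters passed the test (median log2 fold change 0.23), and in 1 of them, LMBRD1, the groups did not overlap. LMBRD1, which takes part in the export of cobalamin, had counts of 146, 198 and 156 in sgCtrl and 179, 189 and 176 in sgN6AMT1 (log2 fold change 0.23, SE 0.11, edgeR adjusted p 0.107). NPC1, the cholesterol exporter, was the deepest measured of them with 228, 304 and 238 counts in sgCtrl against 279, 274 and 210 in sgN6AMT1, and its levels of 112 ± 6.57 and 118 ± 4.15 CPM (SD, n = 3 each) overlapped (edgeR adjusted p 0.519). SLC38A9, an arginine sensor of the nutrient-signalling machinery, did not pass (log2 fold change 0.28, SE 0.16, edgeR adjusted p 0.184). CLN3, whose loss causes a juvenile neuronal ceroid lipofuscinosis, did not pass either (log2 fold change 0.23, SE 0.16, edgeR adjusted p 0.304), and 84.4% of the 28-base windows of its CDS recur in the listed transcript RP11-435I10.4. Of these 4 genes, NPC1 thus had the smallest fold change (log2 fold change 0.08, SE 0.087).

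The remaining transporters had few footprints. The cystine exporter CTNS had 21, 17 and 21 counts in sgCtrl against 21, 39 and 20 in sgN6AMT1, so its higher mean came mainly from 1 library (log2 fold change 0.53, SE 0.27, edgeR adjusted p 0.130), though it passed without sgN6AMT1 replicate 1. SIDT2, implicated in nucleic acid transport, had a log2 fold change of 0.34 (SE 0.24), SLC17A5, the sialic acid exporter, 0.10 (SE 0.27), and SLC36A1, a proton-coupled amino acid transporter, 0.02 (SE 0.35). MFSD8, also mutated in a neuronal ceroid lipofuscinosis, had 46, 70 and 48 counts in sgCtrl against 53, 50 and 29 in sgN6AMT1 (log2 fold change -0.21, SE 0.18, edgeR adjusted p 0.415). Of the last 2 members, HGSNAT, the enzyme that acetylates heparan sulfate across the membrane, had only 7 to 21 counts in a library (log2 fold change 0.14, SE 0.35). TMEM192, a membrane protein often tagged to isolate lysosomes, had 29, 41 and 20 counts in sgCtrl against 20, 25 and 17 in sgN6AMT1. Its fold change was the lowest of the members, with overlapping groups (log2 fold change -0.43, SE 0.25, edgeR adjusted p 0.200).

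**Figure D3:**
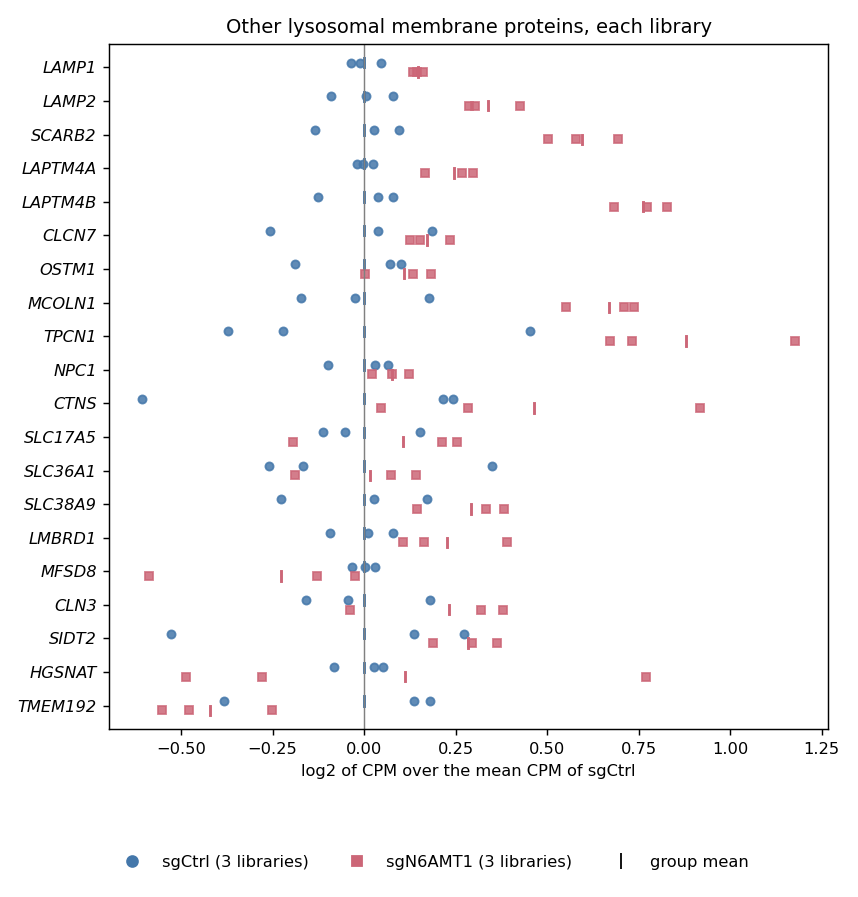
Log2 of the CPM of each library over the mean CPM of sgCtrl (x axis) for each other lysosomal membrane protein, with circles for the 3 sgCtrl and squares for the 3 sgN6AMT1 libraries and short bars for the group means. The groups do not overlap for 8 of the 20, among them the 5 genes at the top from LAMP1 to LAPTM4B, and the spread is widest for genes with few counts such as HGSNAT.

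The classes differed in depth, and so in what could be called. The mean count of a V-ATPase subunit had a median of 342 (range 119 to 687), and the SE of its log2 fold change a median of 0.08. For the other membrane proteins the mean count had a median of 58.3 (range 12 to 1151), and the SE a median of 0.16. Of the 11 others with a mean of at least 50 counts, 3 rose (median log2 fold change 0.23), while 14% of all genes tested at that depth rose. Of the 9 below it, 2 rose (median 0.14), and the median SE of 0.25 made a change of the size found in the V-ATPase mostly not detectable at this depth.

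When counts were summed over a class, the V-ATPase subunits took 0.219%, 0.222% and 0.230% of all counts in sgCtrl and 0.293%, 0.287% and 0.296% in sgN6AMT1. The others took 0.123% in each sgCtrl library against 0.171%, 0.173% and 0.165% in sgN6AMT1. Neither class overlapped between the groups. The ratio of V-ATPase to other counts was 1.79, 1.81 and 1.87 in sgCtrl and 1.72, 1.66 and 1.79 in sgN6AMT1. The groups met at 1.79, so by summed counts the V-ATPase did not gain on the others.

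LAPTM4B decided this ratio. It alone supplied 28.2%, 32.4% and 31.4% of the counts of the other membrane proteins in sgCtrl and 39.1%, 40.2% and 37.8% in sgN6AMT1. LAPTM4B, the member with the smallest p-value, was left out with its increase known, and no V-ATPase subunit was left out beside it. Without LAPTM4B, the others took 0.0881%, 0.0831% and 0.0843% of all counts in sgCtrl and 0.104%, 0.103% and 0.103% in sgN6AMT1. The ratio of V-ATPase to other counts was then 2.49, 2.68 and 2.73 in sgCtrl and 2.82, 2.79 and 2.87 in sgN6AMT1. Removal of this gene shifts the ratio towards the V-ATPase in sgN6AMT1 by construction, so nothing is read from this shift. Within the pump, the V0 sector took 0.0846%, 0.0807% and 0.0858% in sgCtrl and 0.114%, 0.114% and 0.117% in sgN6AMT1. The V1 sector took 0.107%, 0.112% and 0.112% and then 0.139%, 0.136% and 0.139%. Both sectors were higher in every sgN6AMT1 library.

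**Figure D4:**
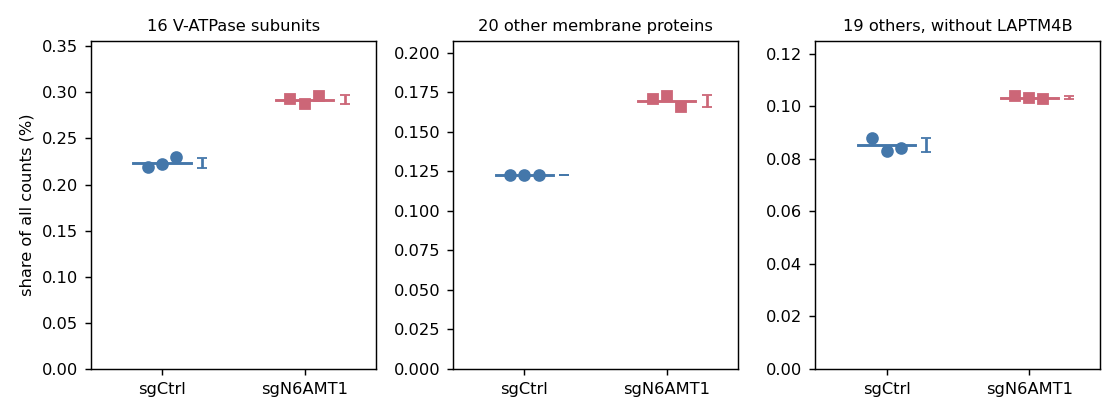
Share of all counts of a library in percent (y axis, starting at 0) on the 16 V-ATPase subunits, the 20 other membrane proteins, and the 19 others without LAPTM4B, with 1 point per library, a line for the mean and a bar of 1 SD (n = 3 per group). In each panel the sgN6AMT1 libraries lie above the sgCtrl libraries, from 0.219% to 0.230% against 0.287% to 0.296% for the V-ATPase.

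Levels were compared between genes as CPM per kilobase of CDS, averaged over the 6 libraries, for the 35 members with a CDS length. The V-ATPase subunits had a median level of 135 CPM per kb and the others one of 16.7 CPM per kb, beside 24.4 CPM per kb for all 8607 tested genes with a CDS. LAPTM4B had the highest level of the members, with 404 ± 29.9 CPM per kb in sgCtrl and 685 ± 34.7 in sgN6AMT1 (SD, n = 3 each). Next came subunits of the pump, ATP6V1F at 419, ATP6V1E1 at 409, ATP6V0B at 398, ATP6V0C at 336, ATP6V1G1 at 299.7 and ATP6V0E1 at 298 CPM per kb. In sgCtrl, the spreads of ATP6V1F (394 ± 13.6 CPM per kb) and ATP6V1E1 (366 ± 34.3) overlapped, as did those of ATP6V0C (292 ± 38.9), ATP6V1G1 (292 ± 39.3) and ATP6V0E1 (269 ± 67.9), so these neighbours had no resolved order.

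A middle tier between 72.3 and 155 CPM per kb, from LAMP1 (155) and LAMP2 (148) to ATP6V1H (72.9) and ATP6V1D (72.3), held 9 V-ATPase subunits, both LAMP proteins and LAPTM4A. The A and B subunits of the catalytic ring, which are present in equal number in the pump, had levels of 132 and 117 CPM per kb over both groups. In sgCtrl they were at 125 ± 5.17 and 101 ± 1.86 CPM per kb, and in sgN6AMT1 at 139 ± 10.9 and 134 ± 6.0 CPM per kb, so that their spreads were apart in sgCtrl and overlapped in sgN6AMT1. ATP6V0A2 was the 1 subunit with a low level, 27.98 CPM per kb against 90.0 for its paralog ATP6V0A1. The transporters and channels lay lower, from NPC1 (30.0 CPM per kb) to SLC36A1 (3.81), as did SCARB2 (29.8), TMEM192 (13.8) and HGSNAT (2.90). The spreads of TPCN1 and SIDT2 in sgCtrl, 3.51 ± 1.13 and 4.45 ± 1.21 CPM per kb, overlapped.

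**Figure D5:**
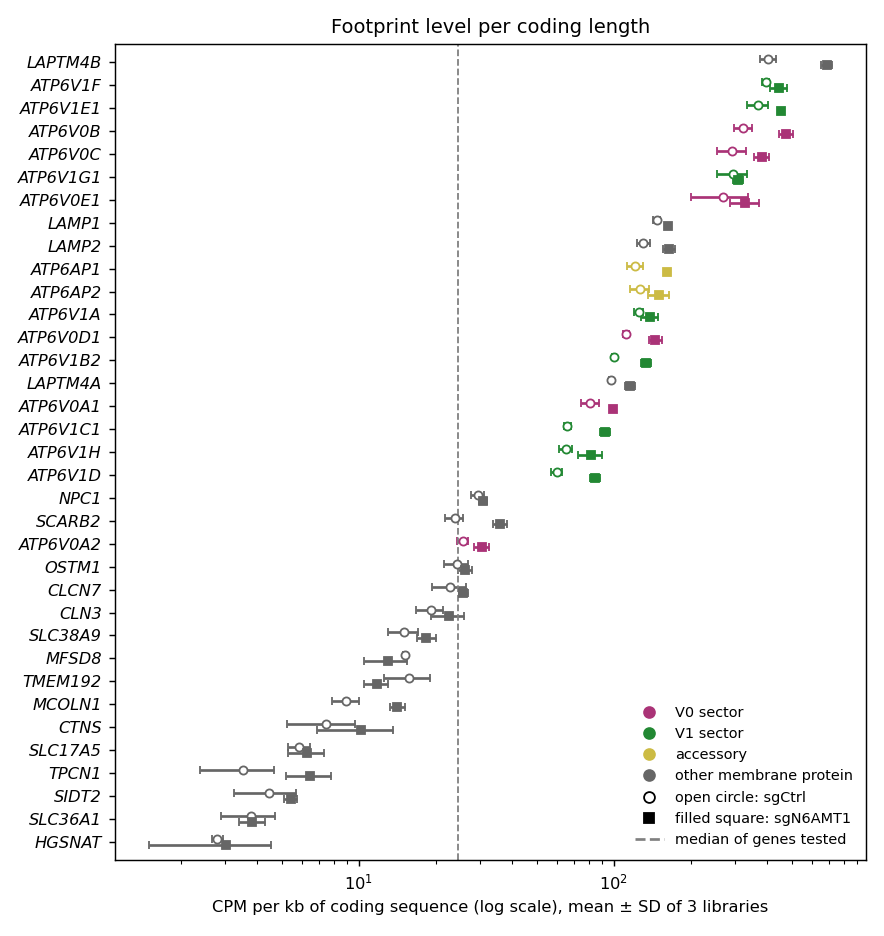
Footprint level in CPM per kilobase of CDS (log x axis) of 35 members in order of level, with the mean and SD of 3 libraries, open circles for sgCtrl and filled squares for sgN6AMT1; colours mark the V0 and V1 sectors, accessory subunits and other membrane proteins. All V-ATPase subunits lie above the dashed line at 24.4 CPM per kb, the median of the genes tested, and by their mean over both groups 12 of the 19 others lie below it.

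As N6AMT1 acts on the release factor that reads stop codons, the ends of the coding sequences are given as a further property that the choice of genes did not use. The study itself, averaging over transcripts, reported that occupancy at stop codons did not differ upon N6AMT1 depletion. It also names other reported substrates of N6AMT1, such as histone H4. Of 35 members, 18 ended in TGA (51.4%), 7 in TAA (20.0%) and 10 in TAG (28.6%), against 49.1%, 29.7% and 21.2% of 8598 tested genes. TAG closed 6 of the 16 V-ATPase sequences (37.5%) and 4 of the 19 others (21.1%). Among the V-ATPase subunits that did not pass the test, ATP6V1A, ATP6V1F and ATP6V1G1 ended in TAG and ATP6V0A2 in TGA. The TAG subunits that rose were ATP6V0C, ATP6V0D1 and ATP6V1B2. The last 15 bases of 5 V-ATPase coding sequences, taken from GENCODE transcripts on GRCh38 with the stop codon in capitals, show that each stop codon occurred among the subunits that rose and that TAG also closed the subunit with the smallest change, ATP6V1G1.
ATP6V0B: atttggtgtcacTGA
ATP6AP1: acccagattgtgTGA
ATP6V1D: cttctatttgaaTAA
ATP6V0D1: atccctatcttcTAG
ATP6V1G1: cgcataaatggaTAG
The median log2 fold change of the members was 0.34 with TAA, 0.16 with TAG and 0.27 with TGA. Over all genes tested these medians were -0.01, 0.03 and 0.01, so the order among the members was not that among all genes. The differences between stop codons were not tested.

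The rest of the lysosome and of the V-ATPase machinery was followed with lists written with earlier results known. Of the 7 assembly and regulatory factors of the V-ATPase (such as VMA21 and CCDC115), 6 were tested and 0 passed edgeR's test, with a median log2 fold change of 0.04. Of the 9 other subunit isoforms, which are mostly restricted to particular tissues, 1 had enough counts and did not pass. Of 29 further lysosomal membrane proteins, 22 were tested. Of the 22, 4 rose (18.2%) and 0 fell, beside 12.9% and 13.9% of all genes tested. Their median log2 fold change was 0.12, with 14 positive and 8 negative values (lowest -0.50). Of the 4 that rose, CD68 is a glycoprotein of the LAMP family known from macrophages (log2 fold change 2.25, from 8.48 ± 1.36 to 41.4 ± 4.14 CPM). The others were LAPTM5, the paralog of the LAPTM4 genes found in blood cells (1.12), the tetraspanin CD63 (0.57) and the sialomucin CD164 (0.22).

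The luminal hydrolases and their cofactors, which need the acid made by the V-ATPase, were followed as well. Of 45 such genes, 37 were tested, 25 rose and 0 fell, with a median log2 fold change of 0.47 and a range from -0.32 that overlapped that of the membrane proteins. The difference from the members was not tested. The acid phosphatase ACP5 rose from 2, 3 and 1 counts in sgCtrl to 24, 26 and 17 in sgN6AMT1 (edgeR adjusted p 3.76e-10). The next largest increases were those of the cathepsin CTSS (log2 fold change 1.74), the ganglioside activator GM2A (1.26) and the sulfatase SGSH (1.26). ACP5, CTSS, CD68, LAPTM5 and LYZ are known from myeloid cells, and their part in the changes of the V-ATPase and the other members was not tested. The myeloid markers CD14 and MPO had too few counts for the test. CD14 had 0 counts in all libraries, and MPO had 2 counts in sgN6AMT1 replicate 3 and 0 in the others.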

How the data were processed

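The deposited table held raw footprint counts per transcript, 1 transcript per gene, for 6 libraries. Per the study's methods, the authors trimmed reads with cutadapt, removed rRNA and tRNA reads, mapped footprints to GRCh38 and to canonical transcripts with Bowtie2, and counted both ribosomal P-sites on coding sequences and overlaps with an annotation; which of these counts was deposited is not stated. No molecular identifiers are described, so duplicates from PCR are included.

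The groups were compared with edgeR 4.0.16 under R 4.3.3 (filterByExpr at its minimum of 10 counts, TMM factors, 2-sided quasi-likelihood F test with robust estimation, Benjamini-Hochberg adjustment over 9202 genes, threshold 0.05). The 10128 genes removed held 0.465% of counts. Fold changes (log2) give sgN6AMT1 relative to sgCtrl, with an SE from the F statistic, and CPM are counts relative to TMM-adjusted library sizes. Library totals ranged from 1821356 to 2969736, and replicates differed by more than sampling noise (chi-square per degree of freedom 1.25 to 1.68 within groups, 4.89 to 7.04 across). The test was tested on simulated data.

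Transcripts were matched by identifier to GENCODE 44 on GRCh38, which gave 17687 of 19330 (91.5%) and 35 of 36 members, LMBRD1 excepted. CDS lengths, stop codons and shared 28-base windows came from it, and promoters from RefSeq. Promoters were not used for ATP6V0E1, ATP6V1A, ATP6V1B2, ATP6V1C1, ATP6V1H, LAMP2, LAPTM4B and HGSNAT.

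The members and the other lists were chosen with earlier results of these data known. All 36 members are named, along with N6AMT1 and, from each other list, up to 4 genes past the threshold with the largest absolute fold change. CD3D, CD14, MPO, MS4A1, TFRC, GATA1, HBZ, HBG1, HBG2, VMA21, CCDC115, OR11A1, OR2M4 and the partners in shared windows were named outside this rule. Alternatives were DESeq2 1.42.0, limma-voom (limma 3.58.1), other scalings and filters, trends on CDS length and GC content removed (loess span 0.5), thinning to the smallest total, the replicate number as a block, and each library left out. Same-numbered libraries did not deviate together, so no block was used. Translational efficiency, which needs matched RNA-Seq, was not analysed here.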

Additional observations from a re-analysis of the deposited data

How the results depend on the processing

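Of the 17 members called higher, 12 passed the threshold in every one of the 16 alternatives (ATP6V0A1, ATP6V0B, ATP6V0C, ATP6V0D1, ATP6V1B2, ATP6V1C1, ATP6V1D, ATP6V1E1, ATP6AP1, LAMP2, SCARB2 and LAPTM4B). ATP6V0E1 was lost in 7 of them. DESeq2, which called 1324 genes (585 higher and 739 lower) where edgeR called 2473, called 9 V-ATPase subunits and 3 others, and lost ATP6V0E1, ATP6V1H, ATP6AP2, MCOLN1 and TPCN1. Scaling by library totals alone gave 1560 higher and 976 lower genes, against 1191 and 1282 with TMM factors; the median of all genes was 0.06 against 0.01, 15 V-ATPase subunits and 8 others were called (adding ATP6V0A2, ATP6V1A, ATP6V1F, LAMP1, LAPTM4A and LMBRD1), and the median log2 fold changes were 0.38 and 0.28. With trends on CDS length and GC content removed, 874 genes were higher and 1396 lower, and the median of all genes was -0.03. The median log2 fold changes of the V-ATPase subunits and the others were then 0.27 and 0.16, and ATP6V0E1 and ATP6AP2 were lost. Leaving out 1 library at a time gave 1859 to 2322 genes, 10 to 12 V-ATPase subunits with a median of 0.28 to 0.37, and 4 to 6 others. A filter at a mean of 50 counts left 11 of the 20 others tested and called 14 subunits and 5 others (adding ATP6V0A2, ATP6V1F, LAMP1 and LAPTM4A, with MCOLN1 and TPCN1 not tested). Without ATP6V0C and CLN3, an alternative chosen after seeing the data, 11 of 15 subunits and 5 of 19 others were called. With the replicate number as a block, which the correlations of same-numbered libraries (-0.06, 0.02 and 0.02) gave no ground for, 2390 genes, 12 subunits and 5 others were called, with medians of 0.32 and 0.23, and the same 17 members were kept. Among members not called, ATP6V1G1, SLC36A1 and HGSNAT changed sign under some alternatives. Members with few counts, such as HGSNAT and SLC36A1, allow no statement on changes of the size seen in the V-ATPase.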
